A study of Mus musculus with 12 samples.

Results

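The genes described here encode the proteins of the cytosolic ribosome. They were chosen by name from the deposited gene table: protein-coding genes called Rps or Rpl with a number, Rplp0 to Rplp2 and Rpsa, without pseudogenes and without the Rps6k kinases. The rule gave 83 of the 55401 genes in the table, 32 named for the small (40S) subunit and 51 for the large (60S) subunit. They lie on 19 chromosomes, 14 of them on chromosome 7 and 4 on the X chromosome (Rpl10, Rpl36a, Rpl39 and Rps4x). Counts above 0 were present in every library for 80 members, and 81 passed the filter on low counts. The exceptions were 3 paralogs known mainly from other tissues. Rpl10l had no count in any library, Rpl39l had 14 counts, all in 1 library, and Rpl3l passed the filter with 35 counts in all.

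The samples were livers of C57BL/6 mice labelled male and 8 to 10 weeks old, profiled by bulk RNA sequencing. FLOX mice were LPCAT3flox/flox, and LKO mice were LPCAT3flox/flox-cre; the promoter driving cre is not given in the labels. Both carry the floxed alleles, so no group here has the unmodified locus. Each genotype was kept on control feeding (NC) or on the NIAAA diet (ALD), a mouse model of alcoholic liver injury whose feeding steps the labels do not list. Libraries were analysed for FLOX-NC (n = 3), LKO-NC (n = 2), FLOX-ALD (n = 3) and LKO-ALD (n = 3), and the remaining LKO-NC sample was not analysed here. Separate animals are not stated for the replicates, and the p-values therefore measure only how these samples vary, which may be technical.

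A ribosome carries 1 copy of almost every one of these proteins, bound to ribosomal RNA, and cells keep the proteins in near-equal amounts. Many of the mRNAs are abundant, short and stable, and begin with a C followed by an unbroken run of pyrimidines, the 5′ terminal oligopyrimidine (TOP) motif. The TOP motif lets mTORC1 and the RNA-binding protein LARP1 set how many of these mRNAs are translated, so an mRNA level is not a measure of protein made. In liver, an organ that exports large amounts of plasma protein, ribosome content is known to follow feeding, growth and injury.

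Start-site windows are shown for some of the members described below and for the pair Rps27 and Rps27l, to show how alike and how different their starts are. RefSeq promoter entries (build GRCm38.p6) were matched for 63 of the 83 members. Rps27a and Rpl3 had no entry, so no window is shown for them. Each window holds 15 bases before the RefSeq start and 15 bases from it, read on the transcribed strand. Where RefSeq lists several starts (3 for Rps19, 2 each for Rps21 and Rps27l) the first is shown; the last Rps19 start has such a run and the second starts of Rps21 and Rps27l have none. Capitals mark the run of C and T nearest the start that begins with C and has at least 4 more C or T.
Rplp2 (chr7:141447636-141447665, + strand): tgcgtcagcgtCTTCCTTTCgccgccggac
Rps10 (chr17:27635230-27635259, - strand): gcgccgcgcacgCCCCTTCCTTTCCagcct
Rps21 (chr2:180257364-180257393, + strand): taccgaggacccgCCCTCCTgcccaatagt
Rps19 (chr7:24884577-24884606, + strand): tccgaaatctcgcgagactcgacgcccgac
Rpl9 (chr5:65391417-65391446, - strand): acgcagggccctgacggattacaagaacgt
Rpl41 (chr10:128549154-128549183, - strand): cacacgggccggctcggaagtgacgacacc
Rpl28 (chr7:4792950-4792979, + strand): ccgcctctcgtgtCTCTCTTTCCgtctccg
Rpl27 (chr11:101442230-101442259, + strand): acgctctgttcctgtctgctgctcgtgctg
Rps27 (chr3:90213634-90213663, - strand): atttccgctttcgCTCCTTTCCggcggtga
Rps27l (chr9:66946071-66946100, + strand): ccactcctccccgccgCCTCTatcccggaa

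A C at the RefSeq start itself with at least 4 more C or T was found in 13 of 63 members (20.6%), beside 2.93% of 11371 tested protein-coding genes with an entry. The letters CTTTCC, which stand in the runs of Rps10, Rpl28 and Rps27, were found on the transcribed strand anywhere in the 300-base promoter of 39.7% of members and 17.2% of those genes. Within 30 bases of the start the shares were 19.0% and 3.42%. CCGGAAG, a core of the sites bound by ETS-family factors, was found on either strand in 41.3% of members and 18.2% of the other set, and AAGATGG in 15.9% and 7.88%. A gene with several RefSeq starts was counted if any start had the match, and a match is a description of letters only. Members with the run at the start (n = 13) and without it (n = 48) had median log2 fold changes of 0.44 and 0.41 in FLOX-ALD against FLOX-NC. The medians were 0.08 and 0.14 in LKO-ALD against LKO-NC, and 0.04 and -0.04 in LKO-NC against FLOX-NC. They were -0.36 and -0.19 in LKO-ALD against FLOX-ALD, and -0.45 and -0.15 for the difference between the 2 feeding effects. Whether the 2 sets of members differ was not tested.

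Libraries held 39.1 to 73.6 estimated counts in units of 1e6. Mitochondrially encoded genes took 12.1 to 13.0% of counts in floxed controls, 13.0 to 14.9% in LKO-ALD, 13.1 to 26.4% in FLOX-ALD and 15.4 and 25.3% in the LKO-NC pair. Lpcat3 stood at 103, 87.1 and 101 counts per 1e6 (CPM, scaled by the TMM method) in floxed controls, and the diet group of that genotype had 37.9, 43.2 and 30.5. LKO controls had 29.2 and 37.2, and their diet group had 10.8, 15.4 and 9.8. Every LKO library was lower than every FLOX library on the same feeding, and every library on the diet was lower than every control library of its genotype. Summed CPM of 9 hepatocyte markers ran from 77106 to 143800, and defining markers of other liver cells were present at far lower sums. LKO-NC replicate 1 stood apart with 344 CPM over 8 Kupffer cell markers (46.2 to 256 elsewhere) and 55.4 over 6 neutrophil markers (3.66 to 28.4 elsewhere). FLOX-ALD replicate 2 had the lowest hepatocyte sum and the highest sums of 5 erythroid (470) and 5 stellate cell markers (256). FLOX-ALD replicate 1, labelled male, had Xist at 772 CPM, and the other libraries had at most 2.95.

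The family as a whole took a larger share of the counts in floxed mice on the diet than in floxed controls. Ribosomal protein genes made up 1.44, 1.44 and 1.77% of counts in nuclear genes in FLOX-NC (mean 1.55 ± 0.188, SD, n = 3). The FLOX-ALD libraries had 1.92, 2.80 and 1.84% (2.19 ± 0.533, n = 3). With cre, the controls had 1.67 and 1.73% (1.70 ± 0.0403, n = 2) and the diet group 1.92, 1.67 and 1.83% (1.80 ± 0.127, n = 3). Each FLOX-ALD library lay above each FLOX-NC library, and the LKO groups overlapped. Without replicate 2 the FLOX-ALD mean was 1.88%. Of all counts, mitochondrial ones included, the groups overlapped: the shares were 1.27, 1.25 and 1.55% in floxed controls and 1.67, 2.18 and 1.36% on the diet.

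On the TMM scale the separation was incomplete. Summed CPM of the members was 13034, 12360 and 15717 in floxed controls and 18406, 21463 and 13577 on the diet, so FLOX-ALD replicate 3 fell below FLOX-NC replicate 3. LKO-NC had 11520 and 15058 and LKO-ALD 16394, 13604 and 15730. FLOX-ALD replicate 2, the highest library on both scales, is the one with the lowest hepatocyte and highest erythroid marker sums, and LKO-NC replicate 1, the lowest on the CPM scale, is the one with the most mitochondrial, Kupffer cell and neutrophil counts among its group; the part of these in the family's level was not tested. LKO-ALD replicate 3 came next in these hepatocyte and erythroid sums (79161 and 309 CPM), with a family share of 1.83% of nuclear counts. In bulk tissue, fewer cells of a type and less RNA per cell cannot be told apart.

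**Figure D1:**
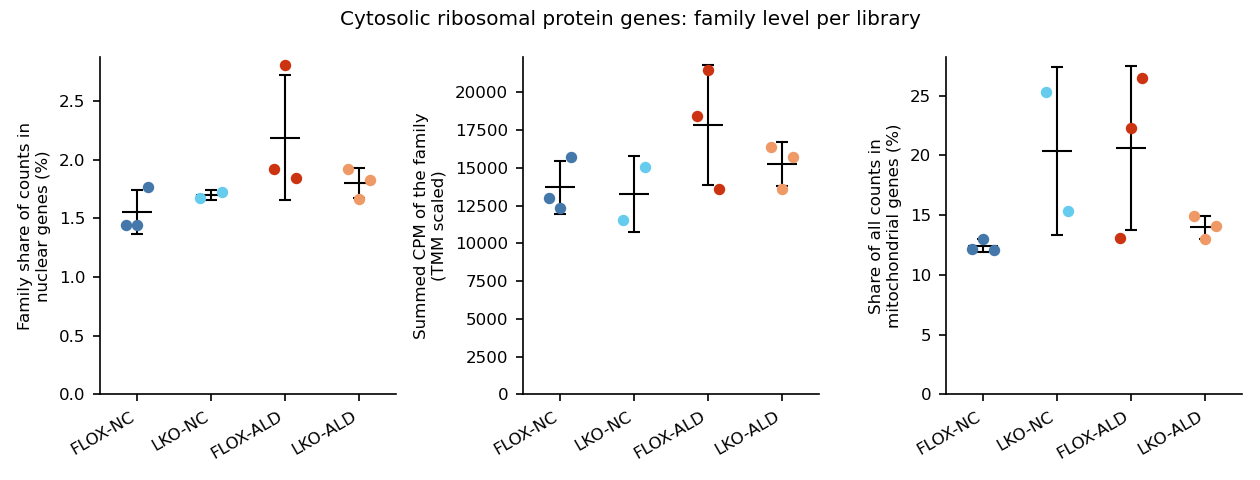
Family level per library in the 4 groups: share of nuclear counts in ribosomal protein genes (%, left), their summed TMM-scaled CPM (middle) and the share of all counts in mitochondrial genes (%, right). Points are libraries and bars are means with SD (n = 3, and n = 2 for LKO-NC); FLOX-ALD libraries sit above FLOX-NC on the left scale and overlap them on the middle scale.

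In some libraries nearly the whole family stood on 1 side of its mean, and in others it split. In FLOX-ALD replicates 1 and 2, 78 of the 80 members with counts throughout stood above their own mean over the 11 libraries, and in FLOX-ALD replicate 3 only 24 did. FLOX-NC replicates 1 and 2 had 8 and 2 members above their mean, and FLOX-NC replicate 3 had 58. LKO-NC replicate 1 had 10 and replicate 2 had 42, and the LKO-ALD libraries had 55, 17 and 50. In each group the replicates differed widely.

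**Figure D2:**
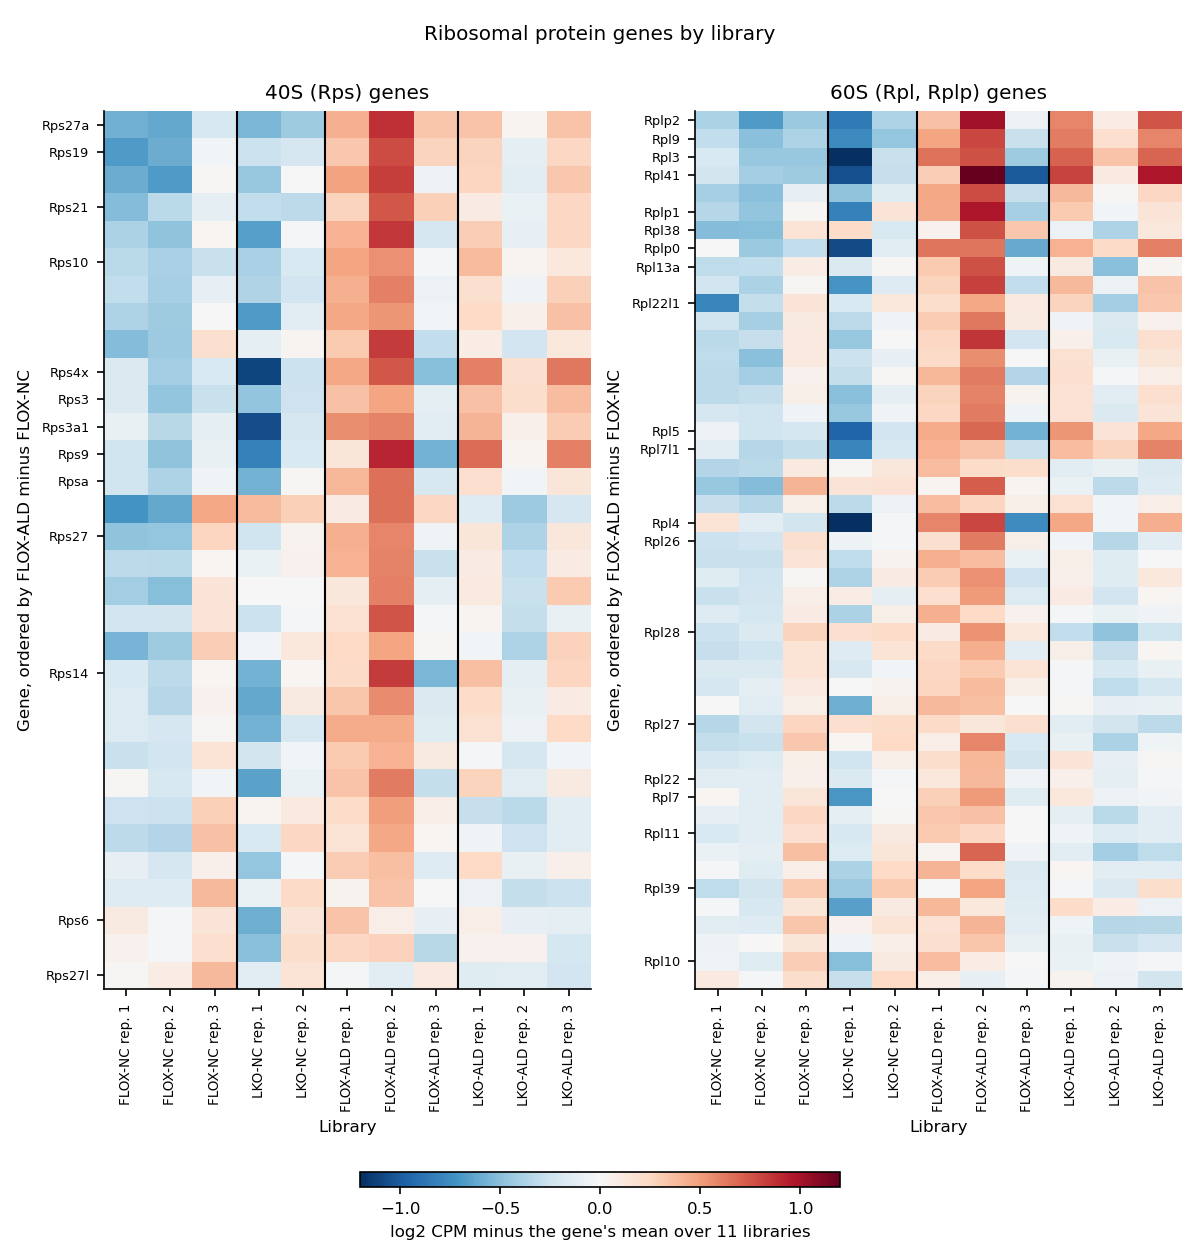
log2 CPM of each of 80 members minus that gene's mean over 11 libraries (colour), for 40S genes (left) and 60S genes (right), with libraries in columns, black lines between groups and labels for some of the genes. FLOX-ALD replicates 1 and 2 are above the mean for 78 of 80 members, and LKO-NC replicate 1 is lowest for genes such as Rpl3, Rpl4, Rps4x and Rps3a1.

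Levels between genes are compared per length, as the authors' FPKM. Averaged over the 11 libraries, Rpl26 was highest at 496 FPKM, followed by Rplp1 at 422, Rps18 at 410, Rpl10 at 406 and Rpl7a at 400. RPL26, a 60S protein near the exit tunnel, also binds p53 mRNA in human cells. Its group means were 456 FPKM in floxed controls and 595 on the diet, and with cre 489 and 443. The lowest core genes were Rpl39 at 55.6, Rps20 at 20.9 and Rps15a at 19.0, and below them lay the paralogs Rpl22l1 at 15.99 and Rpl7l1 at 14.96. FPKM depends on which transcripts the counts were given to, as shown further on, so the order between genes of like level is uncertain. The counts of Rps15a and Rps20 lay on long transcript models, with count-weighted lengths of 5154 and 3653 bases beside a family median of 885. FPKM is scaled by these lengths, so the low place of Rps15a and Rps20 is uncertain too.

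In floxed mice, almost all of the family had a higher group mean on the diet than on control feeding, by small amounts. The median log2 fold change of FLOX-ALD against FLOX-NC over 81 tested members was 0.43 (1.35-fold), beside 0.07 over all 19014 genes tested and -0.05 over 2391 other genes of like abundance (42.1 to 404 CPM). The value was above 0 for 78 of 81 members (96.3%), beside 55.1% of all genes. Members share their libraries and moved together in several of them, so counts of members, here and below, are not separate evidence. The family's median log2 deviation per library was -0.239, -0.286 and 0.086 in FLOX-NC and 0.306, 0.562 and -0.074 in FLOX-ALD, so the groups overlapped. The median log2 fold change was 0.51 for 40S genes and 0.37 for 60S genes. No single member passed the test: edgeR's quasi-likelihood test with Benjamini-Hochberg adjustment over all genes called 0 of 81 members, where it called 0.221% of all genes. At an unadjusted p under 0.05, 17 members were higher (21.0%, beside 7.14% of all genes) and 0 lower (5.92% of all genes). DESeq2 called 5 members, all higher (Rps27a, Rplp2, Rps21, Rps19 and Rps10), beside 1.57% of all genes called higher and 3.4% called either way, and limma voom called 0 (0.153% of all genes).

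Rps27a, which encodes ubiquitin fused to the 40S protein RPS27A, had the smallest p. It stood at 94.1, 91.6 and 123 CPM in FLOX-NC and at 188, 258 and 176 in FLOX-ALD. The groups did not overlap, and every FLOX-ALD library was above every FLOX-NC library. Its log2 fold change was 1.01 (SE 0.222), with an edgeR adjusted p of 0.0971 and a DESeq2 adjusted p of 0.00106.

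Rplp2, one of the acidic stalk proteins that recruit translation factors, stood at 73.0, 59.3 and 70.0 CPM in FLOX-NC and at 121, 191 and 90.8 in FLOX-ALD. All 3 FLOX-ALD libraries were higher, with replicate 2 far above replicate 3. The log2 fold change was 0.996 (SE 0.284, edgeR adjusted p = 0.19). The other stalk genes, Rplp0 and Rplp1, had values of 0.57 (SE 0.34) and 0.70 (SE 0.341), and in both FLOX-ALD replicate 3 lay within the FLOX-NC range or below it.

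Rps19, the 40S protein whose gene is the one most often mutated in human Diamond-Blackfan anaemia, stood at 52.5, 55.7 and 82.5 CPM in FLOX-NC and at 105, 145 and 101 in FLOX-ALD. The groups did not overlap. Its log2 fold change was 0.88 (SE 0.232, edgeR adjusted p = 0.157). Rps21 and Rps10, also of the 40S subunit, had log2 fold changes of 0.76 (SE 0.194) and 0.68 (SE 0.206), again without overlap.

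In all, 11 members had every FLOX-ALD library above every FLOX-NC library (13.6%, beside 9.42% of all genes), and 0 had the reverse (9.96% of all genes). Besides the 5 members above they were Rpl9, Rps15a, Rps3, Rpl37a, Rpl14 and Rpl34. With Rpl3l left out for its few counts, the lowest values were those of Rps27l at -0.18 (SE 0.194), Rpl23a at -0.12 (SE 0.207) and Rps2 at 0.01 (SE 0.259), all 3 with overlapping groups. Among other well-studied members, Rps6, the substrate of S6 kinase, had 0.04 (SE 0.238), Rpl10, which lies near the peptidyl transferase centre, 0.11 (SE 0.238) and Rpl39, in the exit tunnel, 0.17 (SE 0.255). Rpl5 and Rpl11, which with 5S RNA hold back MDM2, had 0.45 (SE 0.31) and 0.22 (SE 0.203). Rpsa had 0.54 (SE 0.267), Rps14 0.43 (SE 0.319), Rps3 0.56 (SE 0.212), Rpl13a 0.54 (SE 0.265), Rpl26 0.40 (SE 0.232), Rpl22 0.23 (SE 0.185) and Rpl7 0.23 (SE 0.249).

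The size of the FLOX difference changed with single libraries. The median was 0.235 without FLOX-ALD replicate 2 (72 of 81 members above 0) and 0.614 without FLOX-ALD replicate 3. Without FLOX-ALD replicate 1, the library with Xist, it was 0.384. The number of members at an unadjusted p under 0.05 was 11, 7 and 50 without FLOX-ALD replicates 1, 2 and 3, and 9, 7 and 29 without FLOX-NC replicates 1, 2 and 3.

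In mice with cre the family median was nearer to 0 and no member passed the edgeR test. The median log2 fold change of LKO-ALD against LKO-NC was 0.12, beside -0.001 over all genes and 0.09 over genes of like abundance. It was above 0 for 55 of 81 members (67.9%, beside 49.9% of all genes), with medians of 0.33 for 40S and 0.10 for 60S genes. The edgeR test called 0 members, where it called 0.957% of all genes. At an unadjusted p under 0.05, 13 of 81 members were higher (beside 10.0% of all genes) and 1 lower (1.23%, beside 9.49%). Every LKO-ALD library was above both LKO-NC libraries for 22 members (27.2%, beside 20.1%) and below both for 11 (13.6%, beside 19.6%). DESeq2 called 7 members, all higher (Rps27a, Rplp2, Rps3, Rps4x, Rpl9, Rpl3 and Rpl7l1), beside 3.89% of all genes called higher and 8.08% called either way, and limma voom called 0 (0.631% of all genes).

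Rpl3, which lines the peptidyl transferase centre of the 60S subunit, had the highest value. It stood at 79.5 and 173 CPM in LKO-NC and at 339, 263 and 338 in LKO-ALD. The groups did not overlap, but the 2 LKO-NC libraries lay further apart from each other than LKO-NC replicate 2 lay from the nearest LKO-ALD library. Its log2 fold change was 1.31 (SE 0.393, edgeR adjusted p = 0.106), and it was 0.858 without LKO-NC replicate 1 and 1.99 without LKO-NC replicate 2. In floxed mice Rpl3 stood at 183, 152 and 152 CPM on control feeding and at 327, 354 and 155 on the diet.

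Rpl41, the shortest of the ribosomal proteins, stood at 70.9 and 121 CPM in LKO-NC and at 257, 159 and 287 in LKO-ALD, a log2 difference of 1.28 (SE 0.516, edgeR adjusted p = 0.199). Its FLOX-ALD libraries were the most scattered of the members shown, at 180, 340 and 72.9 CPM. Rps4x, an X-linked 40S gene, had a log2 fold change of 1.11 (SE 0.365, adjusted p = 0.13). Rpl9, a 60S protein, had 1.08 (SE 0.293, adjusted p = 0.0841), the smallest p of the family here, with 48.4 and 59.6 CPM in LKO-NC and 126, 94.3 and 123 in LKO-ALD. Rplp2 had 1.09 (SE 0.326), Rplp0 0.95 (SE 0.39), Rplp1 0.40 (SE 0.383), Rps27a 0.73 (SE 0.251), Rpl5 0.94 (SE 0.356) and Rps3 0.67 (SE 0.241).

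Toward the other end, Rpl28, a 60S protein, stood at 232 and 235 CPM in LKO-NC and at 164, 144 and 171 in LKO-ALD, with a log2 fold change of -0.55 (SE 0.244, edgeR adjusted p = 0.239). Rpl27, also of the 60S subunit, stood at 165 and 167 CPM and at 131, 123 and 115, with a log2 fold change of -0.43 (SE 0.224, adjusted p = 0.31). For both genes every LKO-ALD library was below both controls. Members near 0 included Rps27 at 0.08 (SE 0.284), Rpl11 at -0.08 (SE 0.227), Rpl13a at -0.02 (SE 0.296), Rpl26 at -0.12 (SE 0.258), Rpl22 at 0.07 (SE 0.207) and Rpl39 at 0.02 (SE 0.285).

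With 2 control libraries, 1 of them decided the LKO median. It was -0.014 without LKO-NC replicate 1, the library with the high Kupffer cell, neutrophil and mitochondrial counts, 0.396 without LKO-NC replicate 2 and 0.193 without LKO-ALD replicate 2. The number of members at an unadjusted p under 0.05, in either direction, was 14 with all libraries, 1 without LKO-NC replicate 1, 7 without LKO-ALD replicate 1 and 9 without LKO-ALD replicate 3. Without FLOX-ALD replicate 3, which is in neither group but in the shared fit, edgeR called 1 member, Rpl9 (adjusted p = 0.0361).

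**Figure D3:**
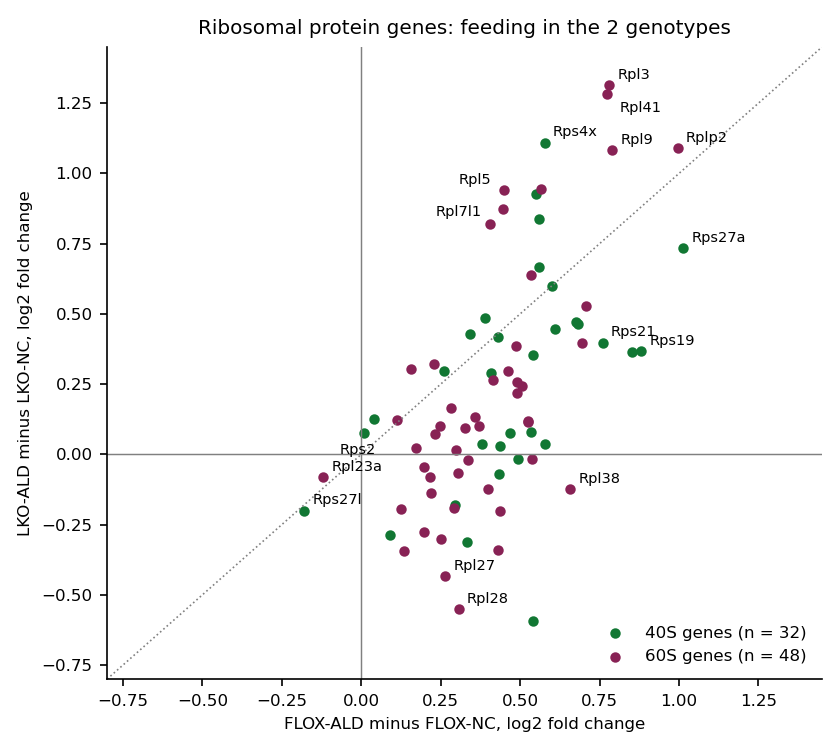
log2 fold change with the diet in floxed mice (horizontal) and in mice with cre (vertical) for 80 members, Rpl3l left out; points are genes, and the dotted line marks equal values. All but 2 of the points lie right of 0, and on the vertical axis they spread on both sides of 0, with Rpl28 at -0.55 and Rpl3 highest at 1.31.

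Of the 81 members, 55 (67.9%) had a value above 0 in both genotypes, beside 32.6% of all genes. Another 23 (28.4%, beside 22.4%) were above 0 in FLOX and below 0 in LKO, 0 the reverse (17.2% of all genes), and 3 (3.7%, beside 27.6%) below 0 in both. The 2 feeding comparisons share no library. Of the members at an unadjusted p under 0.05 and higher, 6 were in both lists (Rpl3, Rpl9, Rplp2, Rps13, Rps27a and Rps3), 35.3% of the FLOX list and 46.2% of the LKO list. Over all genes the shared part was 31.1 and 22.2% of the same lists. Of those with libraries all higher, 9 were in both, 81.8% of the FLOX list and 40.9% of the LKO list, beside 35.6 and 16.7% over all genes.

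**Figure D4:**
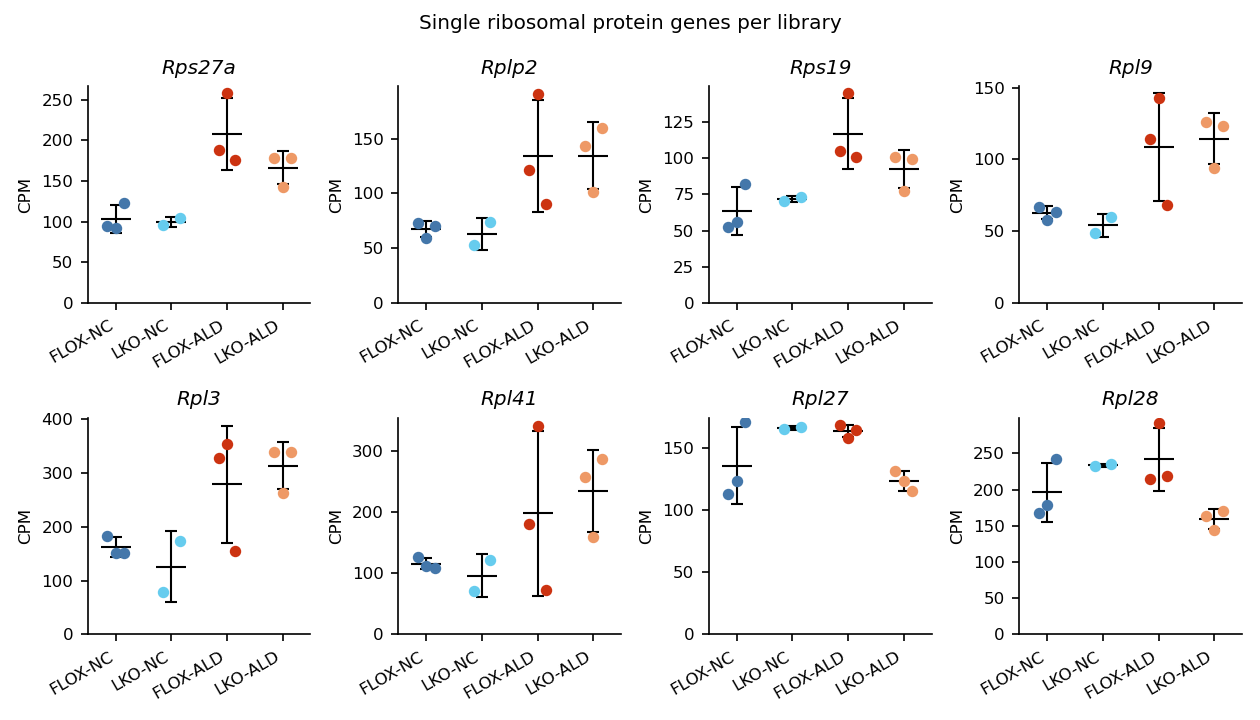
CPM per library of 8 members in the 4 groups; points are libraries and bars are means with SD (n = 3, and n = 2 for LKO-NC). Rps27a, Rplp2 and Rpl9 are higher in every library on the diet than in every control library of their genotype, and Rpl28 and Rpl27 are lower in every LKO-ALD library than in every FLOX-ALD or LKO-NC library.

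Between genotypes on control feeding the family showed no common direction. The median log2 fold change of LKO-NC against FLOX-NC was -0.03, beside 0.0 over all genes, and 34 of 81 members were above 0 (42.0%), beside 9506 of 19014 genes. edgeR called 0 members (0.0105% of all genes). None had an unadjusted p under 0.05 (0 members, beside 4.26% of all genes higher and 2.26% lower), and DESeq2 and limma voom also called 0. For 0 members did the groups separate, against 15.1% of all genes higher and 13.9% lower. Lpcat3 itself was not called by edgeR here either (log2 fold change -1.55, SE 0.255, edgeR adjusted p = 0.176), so 0 calls do not show that levels were alike. Members above 0 included Rpl27 (0.29, SE 0.224) and Rpl36 (0.29, SE 0.302), and the lowest values were those of Rpl4 (-0.46, SE 0.451), Rps3a1 (-0.39, SE 0.31) and Rpl5 (-0.38, SE 0.349). The median turned to 0.122 without LKO-NC replicate 1, to 0.097 without FLOX-NC replicate 3 and to 0.016 with scaling by total counts, and it was -0.158 without LKO-NC replicate 2, -0.096 without FLOX-NC replicate 2 and -0.067 without FLOX-NC replicate 1.

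On the diet, most members were lower in mice with cre than in floxed mice. The median log2 fold change of LKO-ALD against FLOX-ALD was -0.23 (0.85-fold), beside -0.03 over all genes and 0.003 over genes of like abundance, and 11 of 81 members were above 0 (13.6%, beside 47.3%). edgeR called 0 members and 0.0% of all genes, and DESeq2 and limma voom called 0 members. At an unadjusted p under 0.05, 3 members were lower (3.7%, beside 4.05% of all genes), Rpl28 and Rpl35a among them, and 0 higher. Every LKO-ALD library was below every FLOX-ALD library for 20 members (24.7%, beside 6.26%), and the reverse held for 0 (6.35% of all genes). Lpcat3 had a log2 fold change of -1.63 (SE 0.222, edgeR adjusted p = 0.132) in this comparison and was not called by edgeR.

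Rpl28 stood at 215, 292 and 219 CPM in FLOX-ALD and at 164, 144 and 171 in LKO-ALD, a log2 difference of -0.60 (SE 0.222, edgeR adjusted p = 0.548). Rpl27 stood at 168, 158 and 164 in FLOX-ALD and at 131, 123 and 115 in LKO-ALD, a difference of -0.41 (SE 0.202). Neither gene's groups overlapped. Rpl35a had -0.55 (SE 0.249), and, with Rpl3l left out, the members with the highest values were Rpl41 (0.24, SE 0.442), Rpl7l1 (0.22, SE 0.223) and Rps9 (0.18, SE 0.338). The P stalk had values of 0.09 (SE 0.339) for Rplp0, -0.30 (SE 0.339) for Rplp1 and 0.002 (SE 0.281) for Rplp2. The family median was -0.075 without FLOX-ALD replicate 2 and -0.409 without FLOX-ALD replicate 3. The 3 members at an unadjusted p under 0.05 became 16 without FLOX-ALD replicate 3, 1 without FLOX-ALD replicate 2, 1 without LKO-ALD replicate 1 and 0 without LKO-ALD replicate 2.

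The difference between the 2 feeding effects was tested as an interaction. No member passed in edgeR (0 of 81, and 0.00526% of all genes), and DESeq2 and limma voom also called 0. At an unadjusted p under 0.05, 0 members had a higher value in LKO than in FLOX (4.21% of all genes) and 3 a lower one (3.7%, beside 5.15%). Among these were Rpl28 at -0.86 (SE 0.33) and Rpl27 at -0.70 (SE 0.302), with edgeR adjusted p of 0.5 and 0.527. Rpl38 had -0.78 (SE 0.383), and the highest values were Rpl3 at 0.53 (SE 0.507), Rps4x at 0.53 (SE 0.474) and Rpl41 at 0.51 (SE 0.665). The median was -0.23, with 23 of 81 members above 0 (28.4%, beside 47.3%). It was -0.392 and -0.086 without LKO-NC replicates 1 and 2, -0.079 and -0.410 without FLOX-ALD replicates 2 and 3, -0.365 without FLOX-NC replicate 3 and -0.149 without LKO-ALD replicate 2. The 3 members at an unadjusted p under 0.05 became 0 without FLOX-NC replicate 1 or 2 or LKO-ALD replicate 2, 1 without LKO-NC replicate 1, 8 without FLOX-ALD replicate 3 and 9 without FLOX-NC replicate 3.

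Relative to the rest of the family, the same few genes stood out in many libraries. With each library's family median taken out, the SD over 80 members ran from 0.147 (log2) in FLOX-ALD replicate 1 to 0.36 in LKO-NC replicate 1. In that last library Rpl3 was lowest, 1.05 below the family on the log2 scale. Rpl41 varied most over libraries, from -0.937 in FLOX-ALD replicate 3 to 0.873 in LKO-ALD replicate 3 (SD 0.589). Rpl3 ranged from -1.05 to 0.606 and was above the family in all 3 LKO-ALD libraries (0.603, 0.458 and 0.606) and below it in both LKO-NC libraries. As a description over 80 genes that share their libraries, Pearson's r was taken between this relative level and log2 transcript length. It was 0.223, 0.021 and -0.349 in FLOX-NC and 0.41, -0.028 and -0.26 in FLOX-ALD. In LKO-NC it was -0.315 and -0.215, and in LKO-ALD 0.262, 0.374 and 0.213, so the LKO feeding groups did not overlap. Long and short mRNAs of the family thus did not keep a fixed ratio between libraries. The part of length in the differences between groups was not tested.

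Paralogs of core proteins followed their partners unevenly. Rps27l, whose gene is induced by p53, exceeded its partner Rps27 in every library. The FPKM ratio of Rps27l to Rps27 was 3.73, 3.91 and 2.77 in floxed controls and 1.80, 1.58 and 2.92 on the diet. With cre it was 2.92 and 2.85 in controls and 1.99, 2.86 and 1.97 on the diet. In FLOX the groups overlapped through FLOX-ALD replicate 3, and in LKO through LKO-ALD replicate 2. In counts, Rps27l stood at 154, 162 and 199 CPM in FLOX-NC and at 150, 140 and 165 in FLOX-ALD, while Rps27 stood at 35.5, 36.0 and 59.2 and at 66.8, 74.4 and 48.0. The log2 fold changes in FLOX were -0.18 (SE 0.194) for Rps27l and 0.53 (SE 0.254) for Rps27.

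Rpl7l1, a paralog of Rpl7 known for a role in large-subunit assembly, was present at a small fraction of its partner. The FPKM ratio to Rpl7 was 0.0587, 0.0592 and 0.0512 in floxed controls and 0.0728, 0.0622 and 0.0660 on the diet. With cre it was 0.0657 and 0.0613 in controls and 0.0778, 0.0840 and 0.103 on the diet. Every LKO-ALD library was above every other library, and FLOX-ALD was above FLOX-NC. The log2 fold change of Rpl7l1 in LKO was 0.87 (SE 0.256, edgeR adjusted p = 0.101, called by DESeq2 at an adjusted p of 0.0281), beside 0.32 (SE 0.28) for Rpl7. The ratio of Rpl22l1 to Rpl22 averaged 0.228 ± 0.0541 (SD, n = 3) in floxed controls and 0.262 ± 0.0725 (n = 3) on the diet. With cre it averaged 0.205 ± 0.141 (n = 2) in controls and 0.347 ± 0.0839 (n = 3) on the diet, and in both genotypes the feeding groups overlapped. In LKO-NC replicate 1 the ratio of 0.105 came with Rpl22 at 132 FPKM, beside 49.3 to 73.1 in the other libraries, and with 88.1% of its counts on non-coding transcripts, beside 4.62 to 24.4%. In CPM, Rpl22 stood at 92.2 in that library and at 94.3 to 136 in the others. The part of this transcript assignment in the ratio was not tested. Rpl3l, known from heart and skeletal muscle, and Rpl39l, known from testis, were at or near 0 throughout. Rps4l, annotated in the table as a transcribed processed pseudogene and so not a member, had a log2 fold change of 0.96 (SE 0.353, edgeR adjusted p = 0.161) in LKO.

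**Figure D5:**
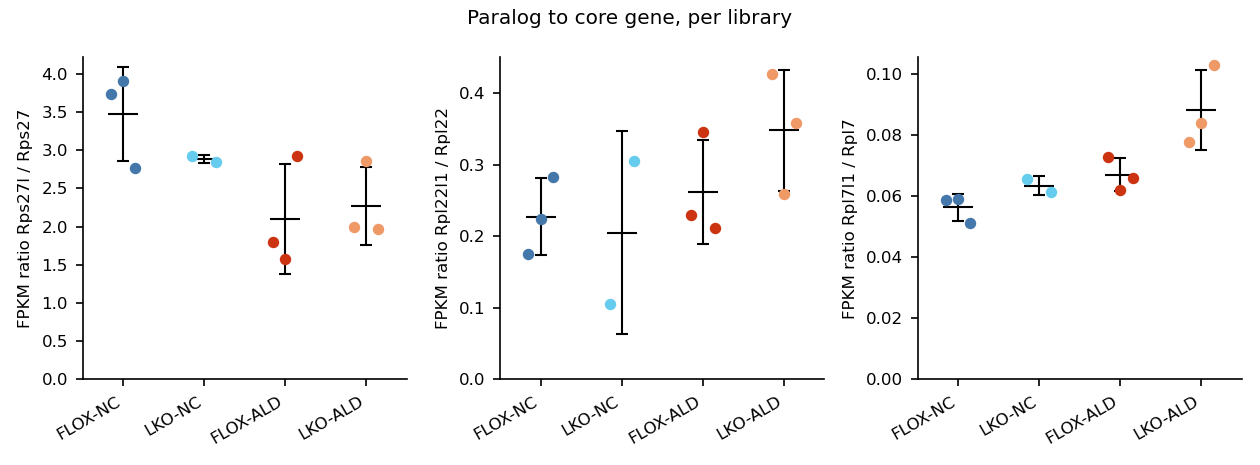
FPKM ratio of a paralog to its core gene in each library (points), with group means and SD (n = 3, and n = 2 for LKO-NC): Rps27l to Rps27, Rpl22l1 to Rpl22 and Rpl7l1 to Rpl7. Rps27l exceeds Rps27 in all 11 libraries (lowest ratio 1.58), and the Rpl7l1 ratio is highest in the 3 LKO-ALD libraries.

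The deposited transcript table bears on how these gene counts were made up. For 25 members more than 10% of the counts were assigned to transcripts annotated as non-coding, and for 5 members no transcript held 50% of the counts. Rpl10a was the extreme case at 95.7% non-coding, followed by Rpl3 at 80.8%. For Rpl3, 73.7% of the counts lay on a single retained-intron transcript of 1877 bases, and the coding transcript of 1351 bases held 19.6%. The non-coding share of Rpl3 was 50.4% in FLOX-NC replicate 3 and 77.7 to 95.2% in the other libraries. Whether these counts are unspliced RNA or reads of the coding mRNA assigned to a longer model was not tested.

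Ribosomal protein genes have many processed pseudogene copies, so reads can fit more than 1 gene. In GENCODE vM21, the 50-base windows of each member's main transcript were shared with another gene for a median of 48.8% of windows over 80 members, and for 38 members over 50% were shared. The share was 93.3% for Rpl9, 92.4% for Rps10, 72.2% for Rps4x, 71.9% for Rps27a and 58.4% for Rpl3, and lower for Rps19 (43.2%), Rpl41 (43.9%), Rpl28 (34.5%), Rplp2 (30.7%) and Rps21 (26.4%). Among the paralog pairs it was 22.4% for Rps27l and 64.0% for Rps27, and 9.03% for Rpl7l1 and 53.3% for Rpl7. For Rpl22l1 and Rpl22 it was 9.52 and 5.2%. The part of shared windows in the paralog ratios was not tested. How the authors' counting treated such reads is not given in the sources used here, and the levels of members with large shares are uncertain to that extent. Genes named as ribosomal protein pseudogenes, with -ps after an Rpl or Rps stem, held 0.35 to 0.63% of the number of counts that the members held. Pseudogenes under other names are not in this share. Of the 319 pseudogenes chosen by name 84 were tested, with a median log2 fold change of 0.27 in FLOX and -0.37 in LKO. In LKO 1 of them passed the edgeR test, where 0.957% of all genes did. This was Rps23-ps2 (edgeR adjusted p = 0.0495), at 0.0433 and 0.0 CPM in LKO-NC, which is under the floor of 3 counts, and at 0.491, 0.566 and 0.598 in LKO-ALD. Its adjusted p ran from 0.0442 to 0.127 with single libraries left out, under 0.05 without FLOX-ALD replicate 2 or 3 and above it without any other.

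Genes of other subunit proteins, outside the name rule, had values within the range of the members. Fau, which encodes RPS30 fused to a ubiquitin-like protein, stood at 116, 102 and 134 CPM in FLOX-NC and at 178, 238 and 145 in FLOX-ALD, a log2 difference of 0.67 (SE 0.228, edgeR adjusted p = 0.25). In LKO the value was 0.58 (SE 0.258). Rack1, the scaffold on the 40S head, had 0.56 (SE 0.246) in FLOX and 0.36 (SE 0.277) in LKO. Of the 4 genes in this group, which also holds Rpl36al, edgeR, DESeq2 and limma voom each called 0 in all 5 comparisons. At an unadjusted p under 0.05 in edgeR, 2 were higher in FLOX and 1 in LKO, beside 7.14 and 10.0% of all genes.

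Genes of the wider pathway gave the following counts, to be read beside the shares over all genes. At an unadjusted p under 0.05 in edgeR, 7.14% of all genes were higher and 5.92% lower in FLOX, and 10.0 and 9.49% in LKO. edgeR called 0.221% of all genes in FLOX and 0.957% in LKO. DESeq2 called 1.57% higher and 3.4% either way in FLOX, and 3.89 and 8.08% in LKO. limma voom called 0.153 and 0.631%. Whether a list exceeds these shares was not tested. Of 19 other genes whose mRNAs carry a TOP motif (elongation and initiation factors among them), edgeR called 0 in every comparison, and the median was 0.08 in FLOX and 0.37 in LKO, with 2 and 4 genes higher at an unadjusted p under 0.05. DESeq2 called 3 of them higher in LKO (Eef1b2, Eif2s3x and Eif3l) and 0 in FLOX. Of 36 ribosome biogenesis genes edgeR called 0, with medians of 0.34 and 0.58. At an unadjusted p under 0.05, 10 were higher in FLOX, and 19 were higher and 1 lower in LKO, among them Nop58, a core protein of box C/D particles (0.85, SE 0.308, in FLOX and 1.26, SE 0.357, in LKO), and Eif6, which keeps 60S subunits from joining (1.06, SE 0.407, and 1.70, SE 0.479). DESeq2 called 11 of these higher in LKO, both named genes included, and 0 in FLOX. It also called Rrs1 higher in LKO-ALD than in FLOX-ALD, beside 0.41% of all genes called higher. Of 21 regulators of ribosomal protein synthesis edgeR called 0, with medians of -0.13 and -0.21, and with 3 lower in FLOX and 1 higher and 4 lower in LKO at an unadjusted p under 0.05. DESeq2 called 3 of them in LKO, 1 higher and 2 lower (Akt1s1, Eif4ebp3 and Tsc1). Between genotypes on control feeding it called Ddit4 higher in LKO-NC than in FLOX-NC, beside 0.221% of all genes called higher. Larp1 itself averaged 128 ± 25.1 CPM in floxed controls (SD, n = 3) and 131 ± 15.3 on the diet (n = 3), and with cre 131 ± 10.9 (n = 2) and 117 ± 8.1 (n = 3). Of 78 mitochondrial ribosomal protein genes, which form a separate ribosome, edgeR called 0 in FLOX (1 higher and 2 lower at an unadjusted p under 0.05) and 1 in LKO, Mrpl38, and the medians were 0.08 and 0.19. DESeq2 called 0 in FLOX and 7 higher and 2 lower in LKO, and limma voom called Mrpl38 alone. Mrpl38 stood at 115 and 74.5 CPM in LKO-NC and at 35.2, 40.1 and 34.5 in LKO-ALD (log2 fold change -1.37, SE 0.231, edgeR adjusted p = 0.0303). The call was lost without LKO-NC replicate 1 (adjusted p = 0.263), LKO-ALD replicate 1 (0.12) or 3 (0.0745) and FLOX-NC replicate 1 (0.0634), 2 (0.0594) or 3 (0.0512).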

How the data were processed

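Gene and transcript tables deposited by the authors hold estimated counts, already whole numbers, and FPKM (fragments scaled by transcript length and library size); the build is mm10 and the tools are FastQC, cutadapt, StringTie, HISAT2 and edgeR (no versions given), per the submitters' processing notes. Per the labels' protocols, a KAPA stranded mRNA kit and a SMARTER library kit were used; the strand setting in counting is not given in the sources used here. Gene counts of 11 libraries were filtered (filterByExpr), scaled by TMM and fitted with 1 mean per group in edgeR 4.0.16 (R 4.3.3), with robust quasi-likelihood tests on 7 residual degrees of freedom and Benjamini-Hochberg adjustment over 19014 genes at a threshold of 0.05. The plan had assumed raw counts, and the same test was used on these estimated counts; 1 of 12 labelled samples was not analysed here. Alternatives used DESeq2 1.42.0, limma 3.58.1 (voom, and log2 of FPKM plus 0.1 or 1), other scalings and filters, pseudogene counts added, and each library left out.

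The members and gene lists were chosen with earlier results of these data known. Genes named in the text are a panel chosen by role, the 3 highest and 3 lowest members of each comparison whose mean log2 CPM was 3 or more, members called by edgeR (0), genes it called in other lists (up to 3 a direction), Lpcat3, Fau and Rack1. Others, such as Rpl9, Rps21, Rps10, Nop58, Eif6, genes called only by DESeq2 and the members with separated libraries, were named after their values were seen. Some genes under the rule are counted but not reported by name here. Gene coordinates of sequences are those of RefSeq on GRCm38.p6, checked against GENCODE vM21 transcripts. A floor of 3 counts corresponded to 0.0408 to 0.0769 CPM at these depths, which does not measure the error of the estimated counts.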

Additional observations from a re-analysis of the deposited data

How the results depend on the processing

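Over the alternatives run, the family medians kept their sign in FLOX-ALD against FLOX-NC (0.235 to 0.614), in LKO-ALD against FLOX-ALD (-0.409 to -0.075) and in the interaction (-0.410 to -0.079), and not in the other 2 comparisons. Leaving out single libraries moved the LKO-ALD against LKO-NC median from -0.014 to 0.396 and its number of called members from 0 to 1, and the LKO-NC against FLOX-NC median from -0.158 to 0.122. DESeq2 called 5 members in FLOX-ALD against FLOX-NC and 7 in LKO-ALD against LKO-NC, and 0 in the others. The FPKM medians for LKO-ALD against FLOX-ALD were -0.138 and -0.137. The family share in FLOX-NC, LKO-NC, FLOX-ALD and LKO-ALD was 1.36, 1.35, 1.73 and 1.55% of all counts (FLOX groups then overlapped), 1.61, 1.78, 2.29 and 1.86% of protein-coding counts, and 3.12, 3.50, 4.48 and 3.69% of summed FPKM; denominators differ by construction. Sample titles share numbers between groups, and same-numbered samples were not taken as pairs in the main fit. Their deviations from the group means had r from -0.050 to 0.078. Within groups of 2 or 3 libraries such deviations cancel, so these values cannot decide whether the samples are paired. With the title number as a replicate block, edgeR called 0 members in either feeding comparison, and the medians were 0.409 in FLOX and 0.220 in LKO. LKO-ALD replicate 2 shares its number with no analysed control, so in this fit it did not add to the LKO value. Over all genes the block gave 12 and 7 calls in place of 42 and 182, and not every sample correlated best with its own number.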
